A study of Mus musculus with 10 samples.

Results

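The cationic amino acid and cystine transporters examined here were Slc7a1, Slc7a2, Slc7a6, Slc7a7 and Slc7a11, the members of the SLC7 family of plasma membrane amino acid carriers listed in the count table other than the neutral amino acid carriers known as LAT1 and LAT2 and the rarer members described below. They were taken by gene symbol and are 5 of the 35275 genes in the table. The study measured poly(A) RNA of 2/20 CTLs, a mouse cytotoxic T cell line of wild-type genotype specific for AH1, a peptide of an endogenous retroviral envelope protein presented by tumour cells of BALB/c origin. There were 5 groups of 2 libraries. Resting cells had no treatment. Peptide-activated cells had received AH1 peptide at 1 µg/mL for 4 h or 24 h. Co-cultured cells had been kept with 4T1 cells, a mouse mammary carcinoma line, for 4 h or 24 h. All groups came from the line as it was maintained, on a weekly round of IL-2 (10 units/mL), AH1 peptide (1 µg/mL) and irradiated spleen cells of BALB/c mice, so that the resting cells had met the peptide before. T cells were isolated by their CD45 on magnetic beads, and total RNA was then extracted. Being 1 line, the cells stand for 1 T cell population, and it is not stated whether the 2 libraries of a group came from separate cultures. P-values therefore measure the spread between such libraries, which may be technical.

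The carriers fall into 3 kinds. Slc7a1 and Slc7a2 encode the cationic amino acid transporters CAT1 and CAT2, single-chain proteins that let arginine, lysine and ornithine cross the plasma membrane. Slc7a6 and Slc7a7 encode the y+L light chains, which exchange cationic amino acids inside the cell for neutral amino acids and sodium outside it, and Slc7a11 encodes xCT, which exchanges glutamate for cystine, the oxidised form of cysteine used for glutathione. The light chains reach the cell surface joined by a disulfide bond to the heavy chain CD98, encoded by Slc3a2. Activated T cells depend on imported arginine for growth and on imported cystine or cysteine, and in mouse macrophages CAT2 supplies arginine to the inducible nitric oxide synthase and arginase.

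On the mm10 build as deposited, Slc7a1 (ENSMUSG00000041313) lies on the minus strand of chromosome 5 at 148327410 to 148399904. Slc7a2 (ENSMUSG00000031596) and Slc7a6 (ENSMUSG00000031904) lie on the plus strand of chromosome 8, at 40862396 to 40922308 and 106168875 to 106198704. Slc7a7 (ENSMUSG00000000958) lies on the minus strand of chromosome 14 at 54369444 to 54409472, and Slc7a11 (ENSMUSG00000027737) on the minus strand of chromosome 3 at 50364936 to 50443613. Each value counts reads over the whole annotated gene. Slc7a2 overlaps 3252 bases of the antisense lincRNA Gm26584, which had a count of 0 in each library. Slc7a7 overlaps 226 bases of Oxa1l on the other strand, and the sources used here do not say whether the counting used strand.

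Promoter windows of 250 bases before to 50 bases after a transcription start were available from RefSeq (GRCm38.p6, the assembly of mm10) for 4 of the 5 genes, all except Slc7a2. The windows of Slc7a1, Slc7a6 and Slc7a11 are shown because the first 2 of these genes moved together and Slc7a11 did not follow them. Slc7a1 and Slc7a6 had 2 windows each, of which the more upstream is shown. They are written 5′ to 3′ on the gene's strand, with capitals for matches to TGATGNAA, the C/EBP-ATF response element read by ATF4, to TGACNNNGC, the antioxidant response element read by NRF2, and to TGANTCA, the AP-1 element. Both strands were searched, and the E-box CACGTG was searched as well. The Slc7a1 window is chr5:148399855-148400154 on the minus strand, the Slc7a6 window chr8:106168604-106168903 on the plus strand and the Slc7a11 window chr3:50443564-50443863 on the minus strand.
Slc7a1: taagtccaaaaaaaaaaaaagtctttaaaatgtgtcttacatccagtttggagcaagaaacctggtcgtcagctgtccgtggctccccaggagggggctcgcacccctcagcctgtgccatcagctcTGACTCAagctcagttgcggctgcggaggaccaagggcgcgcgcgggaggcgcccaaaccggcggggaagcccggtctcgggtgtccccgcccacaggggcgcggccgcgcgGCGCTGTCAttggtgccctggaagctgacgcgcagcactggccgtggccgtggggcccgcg
Slc7a6: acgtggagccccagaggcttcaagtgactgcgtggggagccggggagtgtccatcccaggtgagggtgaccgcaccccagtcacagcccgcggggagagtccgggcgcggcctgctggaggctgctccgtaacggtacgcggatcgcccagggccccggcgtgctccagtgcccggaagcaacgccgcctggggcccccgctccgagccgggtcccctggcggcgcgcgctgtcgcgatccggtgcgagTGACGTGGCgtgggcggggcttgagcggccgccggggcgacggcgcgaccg
Slc7a11: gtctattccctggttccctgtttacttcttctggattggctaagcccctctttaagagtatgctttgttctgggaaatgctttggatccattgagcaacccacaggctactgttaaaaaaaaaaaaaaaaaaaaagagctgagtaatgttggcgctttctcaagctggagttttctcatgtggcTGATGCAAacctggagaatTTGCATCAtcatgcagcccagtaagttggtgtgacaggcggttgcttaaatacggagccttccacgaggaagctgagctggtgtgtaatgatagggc
The Slc7a11 window held 2 matches to the C/EBP-ATF element, at positions -66 to -59 and -47 to -40 from the start on opposite strands, and no match to the other motifs. Of 32851 RefSeq mouse promoter windows of this length, 3.97% held at least 1 such match and 0.07% held at least 2. The Slc7a1 window held 1 match to the antioxidant response element at -11 to -3 and 1 to the AP-1 element at -123 to -117, and the Slc7a6 window held 1 match to the antioxidant response element at -1 to 8; these 2 motifs were found in 12.4% and 7.81% of all windows. The most upstream of the 5 windows of Slc7a7 held 2 matches to the C/EBP-ATF element. None of these 4 windows held the E-box, which 7.15% of all windows held. In the second window of Slc7a1 no motif matched. In that of Slc7a6 the same letters matched the antioxidant response element, at -68 to -60 from its start. A match describes the letters only.

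The libraries held 14104658 to 22910633 counts. Levels below are CPM, counts scaled to a common library size with factors from trimmed means (TMM), and differences are log2 fold changes from edgeR with their standard errors (SE) and with p-values adjusted over all 14729 genes tested. The threshold was an adjusted p of 0.05. The co-culture libraries stood apart in what cells they held. The summed level of 18 epithelial markers was 4255 to 4815 CPM in the 4 co-culture libraries and 0.959 to 10.5 CPM in the other 6, while that of 17 T cell identity genes was 1436 to 3497 CPM in co-culture and 4469 to 16176 CPM elsewhere. Mean CPM of the epithelial adhesion gene Epcam was 310 and 269 in co-culture (4 h, then 24 h) and 0.449 at rest, and that of the T cell receptor subunit gene Cd3e was 184 and 79.5 in co-culture and 440.3 at rest. The peptide libraries held B cell markers, 14 genes that summed to 374 to 885 CPM against 8.65 to 10.2 CPM at rest, and none of the 14 was at 0 in a peptide library, whereas Cd79b, a subunit of the B cell receptor, was at 0 in both resting libraries. Of 14 myeloid markers the sum was 145 to 196 CPM with peptide at 4 h, 40.4 to 69.8 CPM with peptide at 24 h and 45.7 to 50.0 CPM at rest. In these bulk libraries, fewer cells of a type and less RNA per cell cannot be told apart, and no library of 4T1 cells alone was used here. For each carrier, the heavy chain and the related genes below, RNA from T cells and from 4T1 cells in co-culture cannot be told apart. An alternative scaling, called T cell scaling below, uses the 17 T cell identity genes, with RNA of other cells left in the scaled values. On the log2 scale, a library's size factor is the median over those genes of the count's deviation from each gene's mean over the libraries. Those genes themselves responded, with 11 rising and 4 falling with peptide at 4 h, and the scaling moved the median log2 difference of all tested genes from rest to -0.90 after 4 h and 0.94 after 24 h of peptide and to 1.33 and 2.66 after the same times of co-culture, from values between -0.04 and 0.05.

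Against rest, 3 of the 5 carriers rose in each activated group. Slc7a1 and Slc7a6 rose in all 4 of them, Slc7a2 rose after peptide, and Slc7a11 rose in co-culture. Slc7a7 passed the threshold in no comparison. With peptide at 4 h, where 3 of 5 rose and none fell, 59.5% of all tested genes passed, with 28.8% risen and 30.7% fallen. With peptide at 24 h, again 3 of 5 rose and none fell, beside 55.3% of all tested genes past the threshold, 29.2% risen and 26.1% fallen. In co-culture at 4 h the same count stood beside 60.9% past, 34.2% risen and 26.7% fallen. In co-culture at 24 h it stood beside 65.3% past, 36% risen and 29.3% fallen. The share of members past the threshold was thus close to that of all genes, and the members are described one by one for their levels rather than for their number. All 5 genes had passed the filter on low counts, Slc7a2 with counts of 58 to 76 in the peptide libraries and 7 to 15 elsewhere.

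**Figure D1:**
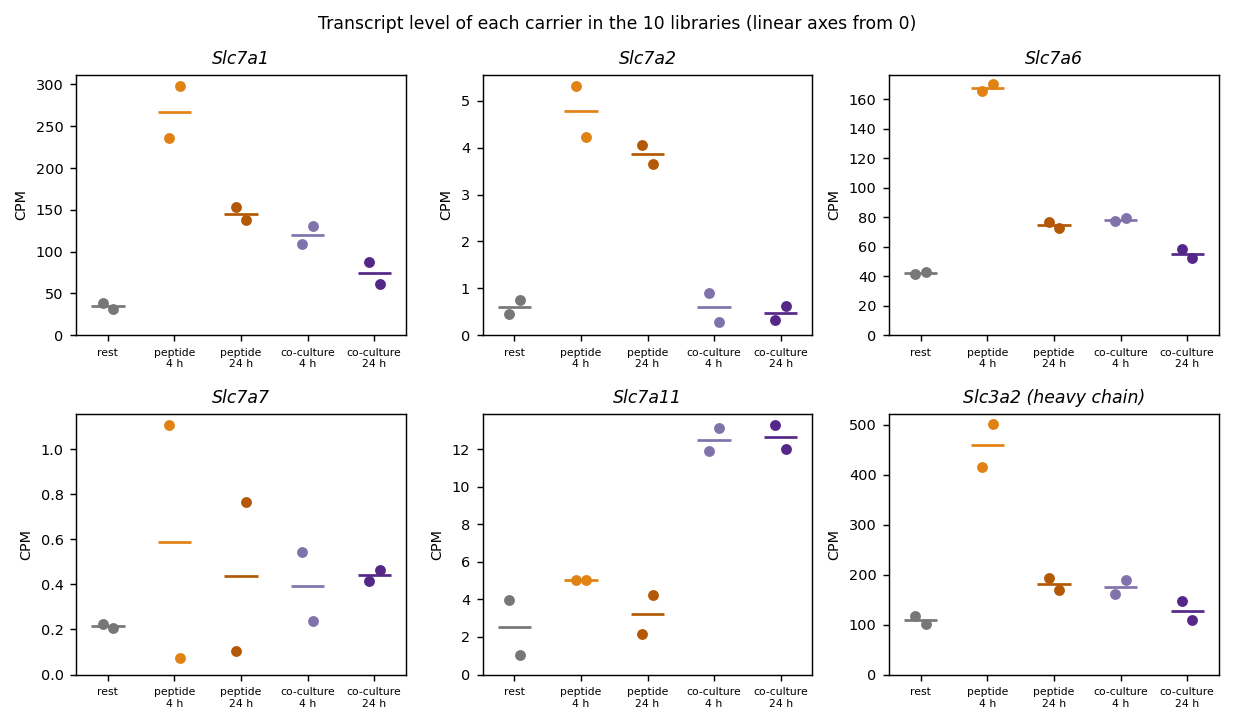
CPM after TMM scaling of the 5 carriers and of the heavy chain Slc3a2 (vertical axes, linear from 0, each gene on its own scale) in the 5 groups (horizontal axis). Points are single libraries and bars are means of 2. Slc7a1, Slc7a6 and Slc3a2 stand highest with peptide at 4 h, Slc7a2 is near 4 to 5 CPM in the peptide libraries and below 1 CPM elsewhere, and Slc7a11 is near 12 to 13 CPM in the co-culture libraries.

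Slc7a1, the widely expressed CAT1 carrier, stood at 38.1 and 31.5 CPM in the resting libraries. After 4 h of peptide it reached 236 and 299 CPM, and after 24 h 153 and 138 CPM. After 4 h of co-culture it reached 109 and 131 CPM, and after 24 h 87.7 and 61.5 CPM. All 8 activated libraries were above both resting ones, and no 2 groups of the 5 overlapped. The rise over rest was 7.67-fold with peptide at 4 h (log2 2.94 ± 0.20, SE; adjusted p = 6.34e-08) and 4.18-fold at 24 h (2.06 ± 0.20; adjusted p = 1.54e-06). In co-culture it was 3.44-fold at 4 h (1.78 ± 0.20; adjusted p = 3.91e-06) and 2.14-fold at 24 h (1.10 ± 0.19; adjusted p = 0.000237). These 4 comparisons share the resting libraries. The rise in each stayed past the threshold under every alternative tried. Its size moved with the T cell scaling, to log2 values of 2.09 and 2.99 with peptide and 3.06 and 3.71 in co-culture, or 2.99, 2.05, 1.73 and 1.05 relative to the median gene. The part of 4T1 RNA in the co-culture values of Slc7a1, and of Slc7a6 and Slc3a2 below, was not tested.

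Slc7a2, the CAT2 carrier, was scarce. Its counts were 8 and 11 in the resting libraries, or 0.448 and 0.755 CPM. They were 72 and 58 with peptide at 4 h and 76 and 67 at 24 h, or 5.31, 4.24, 4.05 and 3.66 CPM. They were 15 and 7 in co-culture at 4 h and 7 and 12 at 24 h, or 0.909, 0.277, 0.325 and 0.617 CPM. Thus each of the 4 peptide libraries stood above each of the other 6, and the resting and co-culture libraries overlapped. Slc7a2 rose 7.95-fold with peptide at 4 h (log2 2.99 ± 0.63; adjusted p = 0.00108) and 6.42-fold at 24 h (2.68 ± 0.62; adjusted p = 0.00261). In co-culture the difference from rest was -0.07 ± 0.68 at 4 h (adjusted p = 0.936) and -0.34 ± 0.69 at 24 h (adjusted p = 0.684), estimates that leave room for a change of either sign. With the T cell scaling the rises with peptide were 2.11 and 3.59, and the 24 h co-culture difference turned positive, at 2.27 (adjusted p = 0.0131), where the median gene stood at 2.66. The peptide libraries with Slc7a2 were also those with B cell markers: Cd79b had 21.4 to 45.1 CPM in the 4 peptide libraries, 1 count in 1 co-culture library and 0 in the other 5 libraries. Mpeg1, a gene of macrophages and some B cells, had a mean of 73.8 CPM after 4 h and 24 CPM after 24 h of peptide, of 3.30 and 18.1 CPM after the same times of co-culture and of 2.71 CPM at rest. Of the 13 myeloid markers tested, 6 rose and 0 fell with peptide at 4 h, and 2 rose and 1 fell at 24 h. In co-culture 1 rose and 4 fell at 4 h, and 3 rose and 3 fell at 24 h. Lyz2, another of them, fell from 32.1 to 1.24 CPM in co-culture at 24 h (log2 -4.69), so Mpeg1 does not stand for the list. The part of B cells and myeloid cells in the Slc7a2 difference was not tested.

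Slc7a6, the y+L light chain y+LAT2, had replicates that lay close together. Its resting libraries held 41.2 and 42.8 CPM. After 4 h of peptide it stood at 165 and 170 CPM, and after 24 h at 76.8 and 72.8 CPM. After 4 h of co-culture it stood at 77.2 and 79.5 CPM, and after 24 h at 58.6 and 52.1 CPM. Every activated library was above both resting libraries, and the 2 peptide libraries at 4 h were above all others. The rise over rest was 4-fold with peptide at 4 h (log2 2.00 ± 0.13; adjusted p = 5.31e-08), 1.78-fold at 24 h (0.83 ± 0.13; adjusted p = 0.000137) and 1.87-fold in co-culture at 4 h (0.90 ± 0.13; adjusted p = 5.6e-05). The smallest rise was 1.32-fold, in co-culture at 24 h (0.40 ± 0.13; adjusted p = 0.0171). That last call was lost without resting replicate 1 (adjusted p = 0.0996), without resting replicate 2 (0.0643) or without co-culture 24 h replicate 1 (0.0733), and also without the filter on low counts (0.0586) or with a fit to those 2 groups alone (0.104). With the T cell scaling the 4 rises were 1.14, 1.76, 2.18 and 3.02, or 2.04, 0.82, 0.85 and 0.36 relative to the median gene.

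Slc7a7, the other y+L light chain, carries in humans the mutations of lysinuric protein intolerance. Its counts were 4 and 3 at rest, 15 and 1 after 4 h of peptide, 2 and 14 after 24 h of peptide, 9 and 6 after 4 h of co-culture and 9 and 9 after 24 h of co-culture. The 2 libraries of each peptide group lay on either side of all resting and co-culture libraries, and the highest level of all, 1.11 CPM, and the lowest, 0.0730 CPM, were both with peptide at 4 h. The differences from rest ran from 0.80 ± 1.24 in co-culture at 4 h (adjusted p = 0.597) to 1.42 ± 1.24 with peptide at 4 h (adjusted p = 0.344). With the T cell scaling the difference in co-culture at 24 h was 3.60 (adjusted p = 0.0175), or 0.94 relative to the median gene. At this depth a change of Slc7a7 with TMM factors was not detectable. Its neighbour Oxa1l, an inner mitochondrial membrane insertase gene, averaged 30.6 to 44.4 CPM in the groups.

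Slc3a2, the heavy chain that the light chains share with LAT1 and LAT2, had mean levels of 109 CPM at rest, 458 CPM after 4 h and 182 CPM after 24 h of peptide, and 176 and 128 CPM after the same times of co-culture. It rose with peptide at 4 h (log2 2.07 ± 0.17; adjusted p = 3.77e-07) and 24 h (0.73 ± 0.17; adjusted p = 0.00254) and in co-culture at 4 h (0.68 ± 0.17; adjusted p = 0.00347). In co-culture at 24 h the difference was 0.23 ± 0.17 (adjusted p = 0.254). A ratio of 2 genes within a library does not depend on how libraries are scaled. Per base of gene length, Slc7a6 had 0.256 to 0.36 of the level of Slc3a2 in all 10 libraries. Both libraries of 4 h co-culture, at 0.317 and 0.359, were above those at rest, at 0.266 and 0.316, and above those of 4 h peptide, at 0.256 and 0.301, differences that were not tested. Slc7a1 had 0.383 and 0.48 of the level of Slc7a6 at rest and 0.613 to 1.04 of it in the 8 activated libraries, so Slc7a1 gained on Slc7a6 in each activated library. The heavy chain Slc3a1, partner of other SLC7 light chains in kidney and gut, had at most 10 counts in a library and was not tested.

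Slc7a11, the cystine carrier xCT, had the pattern least like the others. Its counts were 71 and 15 in the resting libraries, or 3.98 and 1.03 CPM, a wide gap between replicates. After 4 h of peptide it stood at 5.01 and 5.04 CPM, and after 24 h at 2.18 and 4.21 CPM. After 4 h of co-culture it stood at 11.9 and 13.1 CPM, and after 24 h at 13.3 and 11.98 CPM. The 4 co-culture libraries were above all 6 others, while the resting and 24 h peptide libraries overlapped. Slc7a11 rose 4.89-fold in co-culture at 4 h (log2 2.29 ± 0.47; adjusted p = 0.000858) and 4.93-fold at 24 h (2.30 ± 0.47; adjusted p = 0.000732). The size of the rise turned on the resting libraries: without resting replicate 1 it was 3.57 and 3.59 at 4 h and 24 h, and without resting replicate 2 it was 1.67 and 1.68, past the threshold in each case. With peptide the difference from rest was 0.97 ± 0.48 at 4 h (adjusted p = 0.0974) and 0.32 ± 0.48 at 24 h (adjusted p = 0.599). Without resting replicate 1, the one with the higher level, both passed, at 2.28 (adjusted p = 0.00334) and 1.62 (adjusted p = 0.0245). The 4 h value also passed without the filter on low counts (0.94; adjusted p = 0.0259) and the 24 h value with the T cell scaling (1.29; adjusted p = 0.0342), which put the co-culture rises at 3.58 and 4.93.

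The rise of Slc7a11 ran beside that of the epithelial markers. For each 1000 CPM of these markers, Slc7a11 had 2.53 and 2.72 CPM after 4 h of co-culture and 3.12 and 2.80 CPM after 24 h. In the resting and peptide libraries, where these markers were scarce, it had 150 to 2280 CPM. For each 1000 CPM of the T cell identity genes, Slc7a11 had 3.58 and 3.75 CPM after 4 h of co-culture and 8.35 and 8.72 CPM after 24 h. It had 0.108 to 0.942 CPM in the resting and peptide libraries. By this measure Slc7a1 had 3.29 to 4.11 CPM at rest and 14.6 to 31.7 CPM with peptide. In co-culture it had 32.7 to 37.4 CPM at 4 h and 42.9 to 57.7 CPM at 24 h. Slc7a6 had 4.45 to 4.47, 10.2 to 16.3, 22.7 to 23.2 and 36.3 to 38.6 CPM in the same order. The climb in co-culture was thus not particular to Slc7a11. All 17 epithelial markers tested of 18 rose in co-culture at both times, with a median log2 difference from rest of 9.86 at 4 h and 9.63 at 24 h. Slc7a11 RNA from T cells and Slc7a11 RNA from 4T1 cells cannot be told apart in these libraries.

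**Figure D2:**
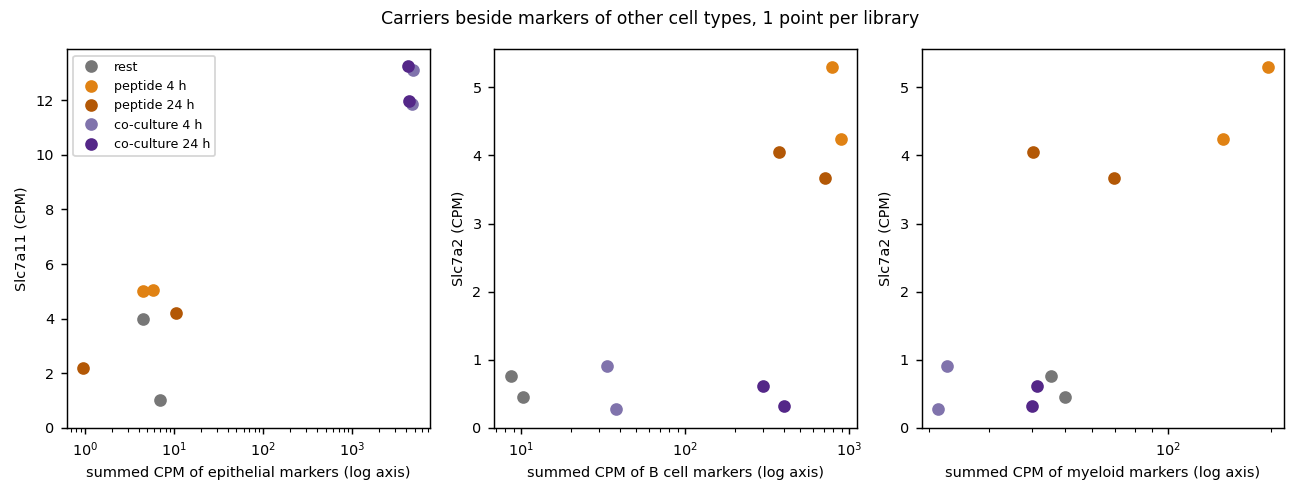
CPM of Slc7a11 against the summed CPM of 18 epithelial markers (left), and CPM of Slc7a2 against the summed CPM of 14 B cell markers (middle) and 14 myeloid markers (right), with 1 point per library and log horizontal axes. The 4 co-culture libraries lie together at high epithelial markers and 11.9 to 13.3 CPM of Slc7a11. In the B cell panel the co-culture libraries at 24 h, with 296 and 398 CPM of the markers, have under 1 CPM of Slc7a2.

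Co-culture was then compared directly with peptide at the same time, the comparison of the 2 ways of activation. At 4 h, 1 carrier was higher in co-culture, 3 were lower and 1 did not pass, beside 61.4% of all tested genes past the threshold, 35.1% higher and 26.3% lower. At 24 h the counts were again 1, 3 and 1, beside 52.6% of all genes past, 28.6% higher and 24% lower. Slc7a2 was lower in co-culture, by a log2 difference of -3.06 ± 0.62 at 4 h (adjusted p = 0.000823) and -3.03 ± 0.63 at 24 h (adjusted p = 0.00123). At 4 h its value was -4.05 without co-culture replicate 1 and -2.36 without co-culture replicate 2, past the threshold both times. With the T cell scaling the 2 differences of Slc7a2 were -0.89 (adjusted p = 0.22) and -1.33 (adjusted p = 0.0848). Slc7a11 was higher in co-culture, by 1.31 ± 0.45 at 4 h (adjusted p = 0.0207) and 1.98 ± 0.45 at 24 h (adjusted p = 0.0025). The 4 h call was lost without any 1 of the 4 libraries compared (adjusted p = 0.0606 to 0.0976), and with the T cell scaling the differences were 3.45 and 3.64.

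Slc7a1 was lower in co-culture than with peptide, by -1.16 ± 0.19 at 4 h (adjusted p = 0.00014) and -0.96 ± 0.19 at 24 h (adjusted p = 0.000814), but was higher, by 0.97 and 0.72, with the T cell scaling. Slc7a6 was lower by -1.10 ± 0.13 at 4 h (adjusted p = 8.75e-06) and -0.43 ± 0.13 at 24 h (adjusted p = 0.0133), and likewise higher, by 1.04 and 1.26, with the T cell scaling. The scaling moved the median difference of all tested genes from 0.16 to 2.29 at 4 h and from 0.02 to 1.72 at 24 h. Relative to those medians Slc7a1 stood at -1.32 at 4 h and Slc7a6 at -1.25 at 4 h and -0.46 at 24 h, and Slc7a1 also lay below the median gene at 24 h. The 24 h call for Slc7a6 was also lost without peptide 24 h replicate 1 (adjusted p = 0.118) or without co-culture 24 h replicate 2 (adjusted p = 0.0891). The heavy chain Slc3a2 was lower in co-culture by -1.38 ± 0.17 at 4 h and -0.51 ± 0.17 at 24 h, and with the T cell scaling it was higher by 0.75 and 1.18.

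**Figure D3:**
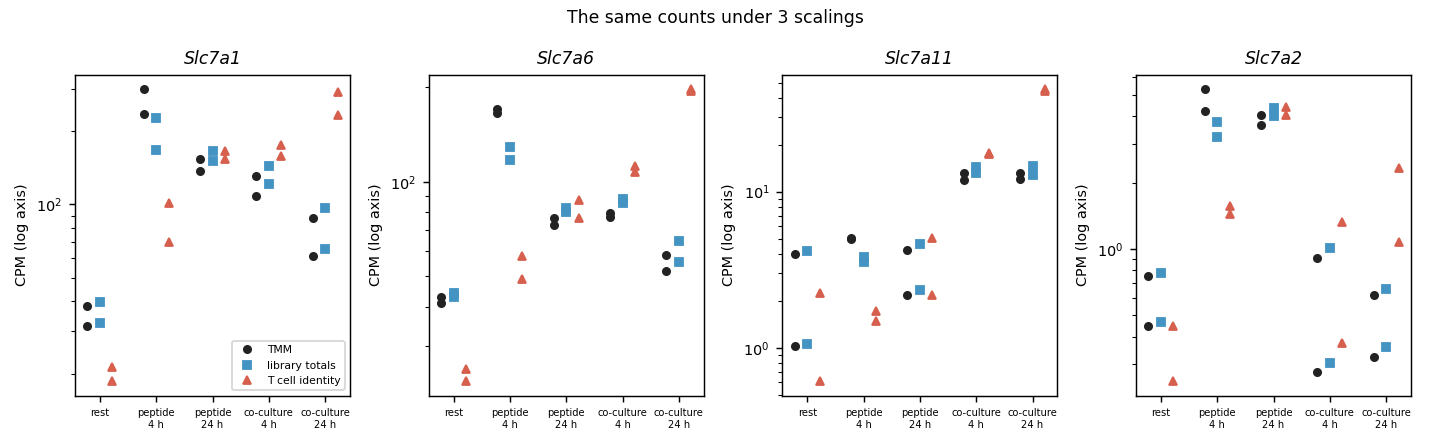
CPM (vertical log axes) of 4 carriers in the 10 libraries with TMM factors, with library totals alone and with scaling to 17 T cell identity genes, by group (horizontal axis); each point is a library. With the T cell scaling Slc7a1 and Slc7a6 are highest in co-culture at 24 h, while with TMM factors they are highest with peptide at 4 h; Slc7a11 is highest in co-culture under all 3.

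From 4 h to 24 h Slc7a1 and Slc7a6 fell in both ways of activation with TMM factors, though both differences turned positive with the T cell scaling, and no fall of Slc7a2 or Slc7a11 passed the threshold. After peptide, 2 of the 5 fell and none rose, beside 52.9% of all tested genes past the threshold, 28.2% risen and 24.6% fallen. In co-culture also 2 of 5 fell and none rose, beside 16.5% past, 8.5% risen and 8.02% fallen. With peptide Slc7a1 fell by 0.88 ± 0.19 in log2 units (adjusted p = 0.0015) and Slc7a6 fell by 1.17 ± 0.13 (adjusted p = 7.03e-06), and both differences turned positive with the T cell scaling, at 0.90 and 0.62, where the median gene stood at 1.82. With library totals alone, Slc7a1 differed by -0.31 (adjusted p = 0.212); the libraries of 4 h peptide have TMM factors of 0.711 and 0.758, with 9.14% and 7.48% of all their counts from the interferon gene Ifng, and the other 8 have factors of 1.03 to 1.11. In co-culture Slc7a1 fell by 0.68 ± 0.19 (adjusted p = 0.0255) and Slc7a6 fell by 0.50 ± 0.13 (adjusted p = 0.0192), and both again turned positive with the T cell scaling, at 0.65 and 0.84 against a median of 1.35. Both co-culture calls were lost without co-culture 4 h replicate 1 (adjusted p = 0.0592 for Slc7a1 and 0.106 for Slc7a6), without co-culture 4 h replicate 2 (0.279 and 0.18) or without co-culture 24 h replicate 2 (0.22 and 0.121). Slc7a2 differed by -0.31 ± 0.54 after peptide (adjusted p = 0.668) and Slc7a11 by 0.01 ± 0.42 in co-culture (adjusted p = 1). With the T cell scaling Slc7a2 and Slc7a11 were higher at 24 h than at 4 h after peptide, by 1.49 and 1.16, and Slc7a11 was higher by 1.35 in co-culture.

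Whether the step from 4 h to 24 h differed between co-culture and peptide was tested as an interaction. For Slc7a6 it did, by 0.67 ± 0.18 (adjusted p = 0.0125), the decline being smaller in co-culture, and it was the only member called, beside 36% of all tested genes, 15.8% with a positive and 20.2% with a negative difference. The call was lost without peptide 24 h replicate 2 (adjusted p = 0.0624), co-culture 4 h replicate 1 (0.0678) or co-culture 4 h replicate 2 (0.0531), and with library totals alone (0.07; adjusted p = 0.814) or the T cell scaling (0.22; adjusted p = 0.51). For Slc7a1 the interaction was 0.19 ± 0.26 (adjusted p = 0.614), for Slc7a11 it was 0.67 ± 0.63 (adjusted p = 0.445), and for Slc3a2 it was 0.88 ± 0.24 (adjusted p = 0.0116). The Slc3a2 value dropped to 0.29 with library totals alone, and to 0.43 with the T cell scaling, where the call was lost (adjusted p = 0.216).

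**Figure D4:**
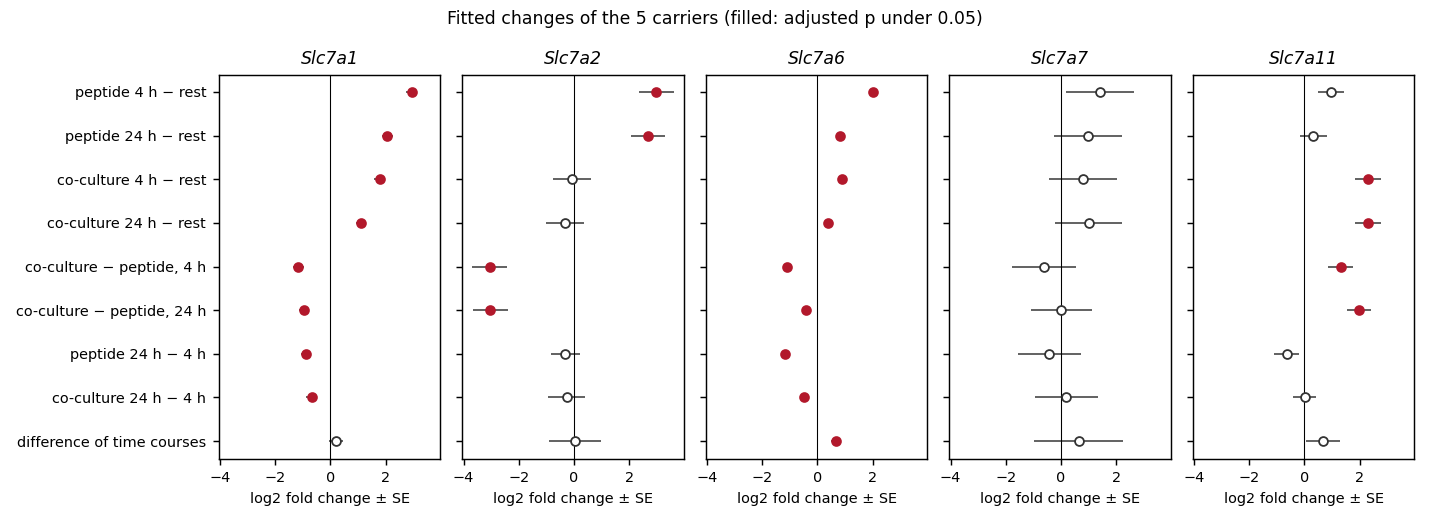
Log2 fold change ± SE (horizontal axes) of each carrier in the 9 comparisons (rows) from edgeR with TMM factors, filled where the adjusted p is under 0.05; the last row is the 24 h to 4 h step in co-culture minus that with peptide. Slc7a1 and Slc7a6 are right of 0 in the 4 comparisons with rest and left of it in the next 4, which turn positive with the T cell scaling, Slc7a2 is filled where peptide libraries are compared with rest or co-culture, and Slc7a11 where co-culture libraries are compared with rest or peptide.

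Levels of different carriers can be compared only per length. Per kilobase of gene length, Slc7a6 averaged 11.3 CPM and Slc7a1 4.85 CPM at rest, and they averaged 45.0 and 37.2 CPM with peptide at 4 h. With peptide at 24 h they stood at 20.1 ± 0.747 and 20.3 ± 1.53 CPM per kilobase (SD, n = 2) and did not differ beyond their spread. In co-culture Slc7a6 averaged 21.0 and 14.9 and Slc7a1 16.7 and 10.4 CPM per kilobase at 4 h and 24 h. Both carriers stood far above the other 3, of which Slc7a11 in co-culture, at 1.35 and 1.37 CPM per kilobase, was the highest. Slc7a2 with peptide at 4 h, at 0.603 ± 0.0958, and Slc7a11 there, at 0.545 ± 0.00206, did not differ beyond their spread. With the longest coding length in place of gene length, Slc7a1 and Slc7a6 were still the 2 highest in all 5 groups, but Slc7a1 led in 4 of them, and the full order was the same in 0 of 5 groups.

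Across the 10 libraries, and among 9732 other protein-coding genes of at least 5 CPM, the genes whose log2 CPM ran closest to Slc7a1 were Pusl1, Nop14 and Grwd1 (Pearson r = 0.994, 0.993 and 0.992). Closest to Slc7a6 were Dmap1, Irf8 and Polr3d (r = 0.995, 0.994 and 0.994). Closest to Slc7a11 were Map4k3, Ahr and Inadl (r = 0.975, 0.967 and 0.964). The last 3 averaged 0.196, 0.258 and 0.482 CPM at rest and 35.3, 15.9 and 37 CPM in co-culture at 4 h. For the scarce genes it reached 0.977 for Slc7a2 (Pole4) and 0.775 for Slc7a7 (Sucla2). The 10 libraries are 5 pairs of replicates and share depth and group, so these correlations describe the libraries. By Spearman correlation, 2 of the 3 genes named for Slc7a11 and 0 of the 3 for Slc7a1 and for Slc7a6 were again among the first 3.

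Of 18 further genes, listed as carriers of cationic amino acids, cystine or related amino acids, 8 were tested. The list includes carriers of neutral amino acids, Slc1a4 among them. Slc7a9, Slc7a10, Slc7a12 and Slc7a15 had a count of 0 in each library, and Slc7a3, Slc7a4, Slc7a13 and Slc7a14 had at most 11 counts in any library. Of the 8, 1 rose and 3 fell with peptide at 4 h, and 2 rose and 2 fell at 24 h. In co-culture 2 rose and 2 fell at 4 h and 4 rose and 1 fell at 24 h. The 1 that rose with peptide at 4 h was the neutral carrier Slc1a4, from 0.028 to 4.25 CPM (log2 6.82 ± 0.69, adjusted p = 2.05e-06). Slc1a4 also rose with peptide at 24 h (6.35) and in co-culture (8.33 at 4 h and 8.23 at 24 h). Slc25a15, the mitochondrial ornithine carrier, rose from 8.35 to 28.9 CPM with peptide at 24 h (log2 1.79 ± 0.25; adjusted p = 3.98e-05). Slc38a9, a lysosomal sensor and carrier of arginine, fell from 38.1 CPM to 12.4 and 18.2 CPM with peptide and to 10.9 and 11.5 CPM in co-culture, though with the T cell scaling the fall was called with peptide at 4 h alone. That scaling put peptide at 24 h at -0.13 (adjusted p = 0.684) and co-culture at 4 h at -0.52 (adjusted p = 0.0912), and turned co-culture at 24 h positive, at 0.90.

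The counts of the related gene lists are to be read beside the shares of all tested genes against rest, 28.8% risen and 30.7% fallen with peptide at 4 h, 29.2% and 26.1% with peptide at 24 h, 34.2% and 26.7% in co-culture at 4 h and 36% and 29.3% in co-culture at 24 h. Of 14 tested genes of arginine, ornithine and nitric oxide metabolism, 3 rose and 3 fell with peptide at 4 h and 5 rose and 1 fell at 24 h, while 8 rose and 1 fell in co-culture at 4 h and 10 rose and 1 fell at 24 h. Their median log2 differences in that order were -0.37, 0.44, 1.43 and 1.89, against -0.04, 0.02, 0.05 and 0.05 over all genes. Nos2, the inducible nitric oxide synthase, had a mean of 4.35 CPM at rest. It fell to 1.32 CPM after 4 h of peptide (-1.71 ± 0.32; adjusted p = 0.000419) and stood at 3.37 CPM after 24 h (adjusted p = 0.247). Co-culture libraries held means of 171 CPM at 4 h and 344 CPM at 24 h, a rise of 5.29 ± 0.23 and 6.30 ± 0.24 (adjusted p = 1.44e-09 and 4.02e-10). Ass1, which acts on the way from citrulline to arginine, rose in all 4 activated groups from its 0.467 CPM at rest. Peptide brought it to 10.6 CPM at 4 h (log2 4.43) and 6.16 CPM at 24 h (3.64), and co-culture to 21.0 CPM (5.41) and 26.2 CPM (5.73; adjusted p from 1.65e-07 to 2.75e-05). Asl, on the same route, fell from 29.0 to 9.18 CPM with peptide at 4 h (-1.66 ± 0.18; adjusted p = 4.7e-06). In the other 3 activated groups its differences were -0.22, -0.30 and -0.23, none past the threshold. The part of 4T1 cells in the co-culture values of these lists was not tested. Of 15 genes of polyamine synthesis, breakdown, control, transport and use, 10 rose and 4 fell with peptide at 4 h and 9 rose and 2 fell in co-culture at 24 h. Among them Srm, spermidine synthase, rose from 14.2 to 267 CPM with peptide at 4 h (4.23 ± 0.16; adjusted p = 6.42e-10) and to 79.1 CPM in co-culture at 24 h (2.47 ± 0.15; adjusted p = 1.1e-08). Paox, on the same list, fell with peptide at 4 h (log2 -4.07). Of 5 tRNA synthetases for arginine, lysine and cysteine, 2 rose and 1 fell with peptide at 4 h, and Rars rose from 56.6 to 269 CPM (2.25 ± 0.19; adjusted p = 4.01e-07) and by 2.06 to 2.39 in the other 3 activated groups.

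On the cystine side, 7 of 19 genes of glutathione and cysteine metabolism rose and 4 fell with peptide at 4 h, near the shares of all genes. With peptide at 24 h 10 rose and 2 fell, with a median log2 difference of 1.00. In co-culture 12 rose and 2 fell at 4 h, and 14 rose and 3 fell at 24 h, with medians of 0.83 and 1.23. Compared directly with peptide, co-culture had 12 higher and 5 lower at 4 h (median 1.00). At 24 h it had 7 higher and 1 lower (median 0.09). Gclm, a subunit of the enzyme that makes glutathione's precursor, rose from 13.8 to 27.5 CPM with peptide at 24 h (log2 1.00 ± 0.15, adjusted p = 9.06e-05). In co-culture at 24 h it rose to 69.4 CPM (2.33 ± 0.15, adjusted p = 2.46e-08). Gclc, the catalytic subunit of that enzyme, fell there from 63.5 to 46.9 CPM (-0.44 ± 0.15; adjusted p = 0.02), but with the T cell scaling its difference was 2.19. Of 17 NRF2 regulators and targets, 7 rose and 6 fell with peptide at 4 h and 9 rose and 5 fell at 24 h. In co-culture 11 rose and 2 fell at each time. Nfe2l2, which encodes NRF2, rose from 5.05 to 16.8 CPM with peptide at 4 h (1.74 ± 0.19, adjusted p = 4.48e-06). It stood at 5.67 CPM with peptide at 24 h (adjusted p = 0.486). In co-culture at 4 h it rose to 48.7 CPM (3.27 ± 0.19, adjusted p = 1.19e-08). Bach2, on the same list, fell there from 22.1 to 1.08 CPM (-4.32 ± 0.37; adjusted p = 4.01e-07). Of 15 genes of ATF4 and its targets, 8 rose and 4 fell with peptide at 4 h and 6 rose and 4 fell in co-culture at 4 h. Asns, asparagine synthetase, rose from 18.4 to 155 CPM with peptide at 4 h (3.07 ± 0.14; adjusted p = 3.02e-09), and Trib3, a stress-induced pseudokinase gene, rose from 0.464 to 27.0 CPM in co-culture at 4 h (5.84 ± 0.35; adjusted p = 1.52e-08). Ddit4 fell from 98.7 to 9.69 CPM with peptide at 4 h (-3.35 ± 0.17), and Eif2ak3 fell with peptide (-2.15) and in co-culture (-2.52) at 4 h. Atf4 itself rose with peptide at 4 h (1.39) but did not pass the threshold in co-culture (0.24 at 4 h and -0.18 at 24 h). These co-culture values stand beside the same epithelial markers as Slc7a11, and the part of 4T1 cells in them was not tested. The counts moved with the scaling: with the T cell scaling 4 polyamine genes rose with peptide at 4 h and 15 rose in co-culture at 24 h, where the medians of all genes stood at -0.90 and 2.66.

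**Figure D5:**
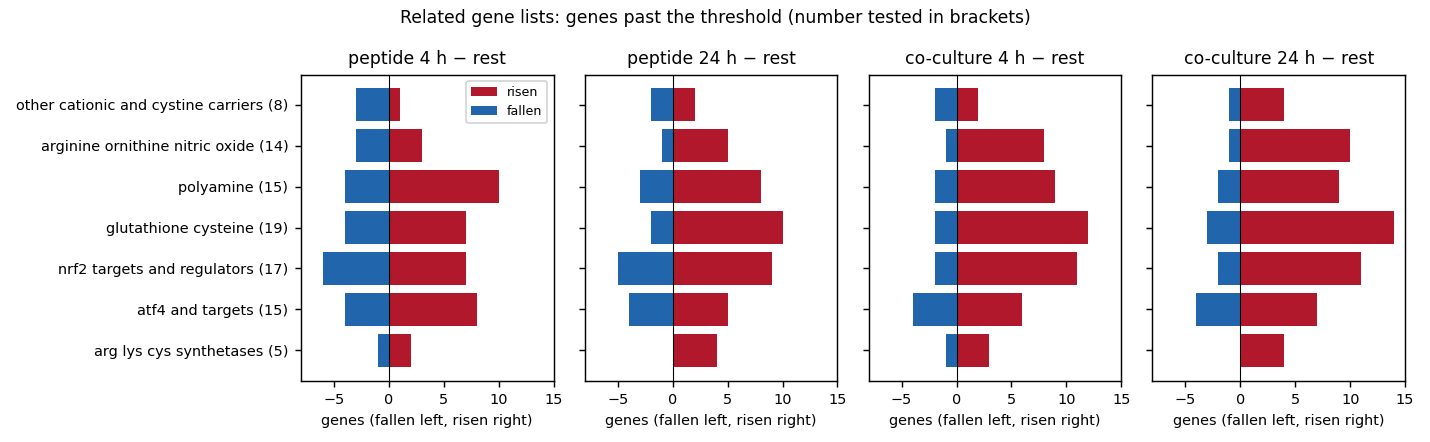
Number of genes past the threshold against rest (horizontal axis, fallen to the left and risen to the right) in 7 related gene lists (rows, number tested in brackets) with TMM factors. In co-culture at 24 h the bars reach 14 risen genes for glutathione and cysteine metabolism and 10 for arginine metabolism, and most of the fallen bars of the co-culture panels are absent with the T cell scaling.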

How the data were processed

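Poly(A) RNA of 10 libraries was sequenced from stranded libraries, per the labels' protocols. The authors deposited whole-number read counts for each Ensembl gene, without scaling. The build is mm10 and the tool DESeq2 1.36, per the submitters' processing notes. Which aligner, counter and strand setting were used, and how shared reads were handled, is not stated in these sources.

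From these counts, edgeR 4.0.16 (R 4.3.3) tested the 14729 of 35275 genes that filterByExpr kept. TMM factors, a mean per group and no covariate were used in 1 quasi-likelihood model of all 10 libraries (5 residual degrees of freedom, common biological coefficient of variation 0.159). The 9 contrasts were two-sided, with Benjamini-Hochberg adjustment over all tested genes and a threshold of 0.05. The procedure was also run on simulated counts with the same dispersion for all genes and changes in few genes, in the peptide 4 h libraries only. Far more genes passed in the data, so that run does not measure error rates here. SE is the log2 fold change divided by the root of the F statistic. Log2 CPM for correlations used a prior count of 2.

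Totals ran from 14104658 to 22910633 counts. Small counts are uncertain by counting error alone, which replicate spread adds to. The mean chi-square per gene between replicates was 7.22 to 50.9, so replicates differed by more than sampling noise.

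The members, the gene lists and the tests were chosen with earlier results of these data known. Named were the 5 members, their heavy chains, overlapping genes, marker examples, the 3 genes most like each member, and of each list up to 2 genes per direction with the lowest adjusted p against rest at 5 CPM or more. Of those, 98 values were eligible and some are given. Outside that rule, values in further groups are given for Nos2, Ass1, Asl, Gclm, Nfe2l2 and Slc1a4, and values of Atf4. Of 176 list symbols 175 were found, 4 by an older name. Alternatives were RLE factors, library totals alone, T cell scaling, no filter, a filter of 1 CPM in 2 libraries, the replicate number as a block, the contrast's groups alone, limma-voom (limma 3.58.1), DESeq2 1.42.0 and each library left out. Promoters are RefSeq's, on GRCm38.p6.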

Additional observations from a re-analysis of the deposited data

Results flagged for a closer look

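The step from 4 h to 24 h of Slc7a6, a light chain that exchanges cationic for neutral amino acids, differed between co-culture and peptide by 0.67 ± 0.18 on the log2 scale (edgeR, adjusted p = 0.0125), and stands here because the difference between the 2 ways of activation was itself tested and passed. Slc7a6 went from 168 to 74.8 CPM with peptide and from 78.4 to 55.4 CPM in co-culture. With library totals alone the Slc7a6 value was 0.07 (adjusted p = 0.814), and with the T cell scaling 0.22 (adjusted p = 0.51).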

How the results depend on the processing

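Of 390 member values recomputed under settings that kept all libraries, 368 kept their direction and their side of the threshold (a change of sign past the threshold under neither setting not counted), 7 lost the call, 4 gained one and 11 reversed, all 11 with the T cell scaling. These were Slc7a2 in co-culture at 24 h against rest (2.27), Slc7a1 (0.97 and 0.72) and Slc7a6 (1.04 and 1.26) in co-culture against peptide at 4 h and 24 h, Slc7a1 (0.90), Slc7a2 (1.49), Slc7a6 (0.62) and Slc7a11 (1.16) at 24 h against 4 h of peptide, and Slc7a1 (0.65) and Slc7a6 (0.84) at 24 h against 4 h of co-culture. With this scaling the members past the threshold were 5 in co-culture at 24 h against rest, 4 at 24 h against 4 h of peptide and 0 in the interaction, and the genes past it were 12161 in co-culture against peptide at 24 h and 11142 at 24 h against 4 h of co-culture. Among the genes past the threshold, 48.4%, 52.8%, 56.1% and 55.2% were higher than rest in the 4 comparisons with TMM factors (peptide 4 h and 24 h, then co-culture), and 21%, 85%, 91% and 98.2% with the T cell scaling. With library totals alone the first of these shares was 31%, with the median gene at -0.54, and the members past the threshold were 1 at 24 h against 4 h of peptide and 0 in the interaction. Of the 98 values of named list genes, 15 changed sign with the T cell scaling and 0 with library totals. Of 1216 counts of list genes under the alternatives, 109 moved by over 1.5 times.

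Leaving out 1 library kept the direction and the side of the threshold of 430 of 450 member values; 18 lost the call, 2 gained one and 0 reversed. A group left with 1 library was assumed to vary like the others. The members past the threshold ranged from 0 to 2 at 24 h against 4 h of co-culture, where all genes past it ranged from 848 to 2785, and from 0 to 1 in the interaction.

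No pairing of libraries by replicate number was seen: in 10 pairs of groups the deviations of same-numbered libraries correlated at -0.161 to 0.081. Such low correlations cannot exclude that same-numbered libraries shared a culture or a day. With the replicate number as a block the members past the threshold were 3 in each comparison with rest, 4 in each comparison of co-culture with peptide, 2 in each comparison of times and 1 in the interaction, as without it, and no count of all genes moved by over 1.5 times (8427 with peptide at 4 h, 1974 at 24 h against 4 h of co-culture).

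Counts of 1 to 15 limit Slc7a7, and counts of 7 to 15 limit Slc7a2 outside the peptide libraries; intervals and SEs there are wide.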
